A study of Homo sapiens with 16 samples.

Results

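The mRNA of 10 amino acid transporters of the plasma membrane was followed in LN229 cells, an established human glioblastoma line, under ischemic and regular culture and with inhibitors of p38α or MK2. The transporters were taken from the tables by gene symbol, with no threshold on their values, and are SLC7A11, SLC7A5, SLC3A2, SLC7A1, SLC1A4, SLC1A5, SLC38A1, SLC38A2, SLC6A9 and SLC7A6. They were chosen with earlier results of these data known. Their counts and medians beside those of all genes are therefore a description. All 10 were listed in both tables, in the first among 13559 genes and in the second among 14024. The first experiment compared untreated LN229 cells in regular culture with LN229 cells in ischemic culture. The second combined each culture with DMSO, with VX745, a small-molecule inhibitor of p38α, or with MK25, a small-molecule inhibitor of the p38 substrate kinase MK2. Each of the 8 groups had 2 libraries, 16 in all. Regular medium held 10% fetal bovine serum. Ischemic medium held 2 mM glucose, 0.1 mM glutamine and 1% serum under 1% oxygen, in a base medium that lacked sodium pyruvate. The effects of oxygen, glucose, glutamine, serum and any difference in pyruvate therefore cannot be told apart. The study's methods name 2 µM for VX745 and 10 µM for MK25. The labels do not say whether the 2 replicates were separate cultures, so the p-values measure only the spread between these libraries, which may be technical.

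Amino acid transporters move amino acids across the cell membrane, either as exchangers that let one amino acid in while another leaves or by coupling uptake to sodium. When amino acids run short or proteins misfold, kinases that phosphorylate eIF2α raise the translation of ATF4, a transcription factor whose targets include many of these transporters. ATF4 binds C/EBP-ATF elements, short sites made of a C/EBP part and an ATF part. Tumor cells use glutamine, cystine and leucine taken up in this way for protein synthesis, for glutathione and for signaling to mTORC1.

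Between 20122017 and 37562668 reads on listed genes per library were recovered from the deposited values, and the lowest level of a transporter, SLC6A9 in regular culture, stood well above the level of 3 reads. The replicates of each group differed by more than counting noise, so no library was counted as a copy of another. The 10 genes that took the most reads held 4.23% to 4.65% of the reads in the regular libraries and 5.66% to 6.45% in the ischemic libraries, a difference between the cultures whose part in the results was not tested. All 6 markers of the line, VIM, NES, CD44, SOX2, GFAP and S100B, were listed. VIM and CD44 stood at 761 CPM or more in every library, and the levels of the other 4 are not given here. In ischemic culture VIM rose (1.38 and 1.27 on the log2 scale in the 2 experiments), and SOX2 (-3.11 and -2.23) and NES (-1.36 and -1.06) fell. At an adjusted p under 0.05 (limma) and any size, 4 of the 6 were lower and 1 higher without treatment. With DMSO 3 were lower and 2 higher. By that rule between 34.4% and 35.2% of all genes stood in each direction. Of 8 markers of blood, endothelial, neuronal and oligodendrocyte cells, 7 were in neither table. The neuronal gene SYT1 was listed, at 12.9 to 16.9 CPM in regular and 41.8 to 79.3 CPM in ischemic libraries. In bulk RNA, a change in the share of cells that express a gene and a change in the RNA per cell cannot be told apart.

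Levels of different genes were compared as log2 CPM per kilobase of exon. In untreated regular cells, SLC7A5 (7.44 ± 0.10, SD, n = 2) and SLC3A2 (7.33 ± 0.0033) were the highest, followed by SLC1A5 (6.50 ± 0.022), SLC1A4 (6.08 ± 0.058), SLC38A2 (5.21 ± 0.026) and SLC7A1 (4.75 ± 0.067). SLC7A6 (3.17 ± 0.078) and SLC38A1 (3.03 ± 0.038) came next, and SLC6A9 (2.09 ± 0.11) and SLC7A11 (2.05 ± 0.011) were the lowest, with overlapping libraries. In untreated ischemic cells SLC7A5 (8.72 ± 0.079) remained first, and the libraries of SLC3A2 (8.36 ± 0.14) overlapped those of SLC1A4 (8.27 ± 0.073). SLC1A4 had thus passed SLC1A5 (8.0 ± 0.018). SLC38A2 (6.0 ± 0.44) and SLC7A1 (5.97 ± 0.043) overlapped as well. SLC7A6 (2.30 ± 0.21) went from the seventh place to the last. The summed reads of the 10 genes made up 0.233% to 0.331% of all reads in the regular libraries and 0.503% to 0.585% in the ischemic libraries. The 2 ranges did not overlap.

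**Figure D1:**
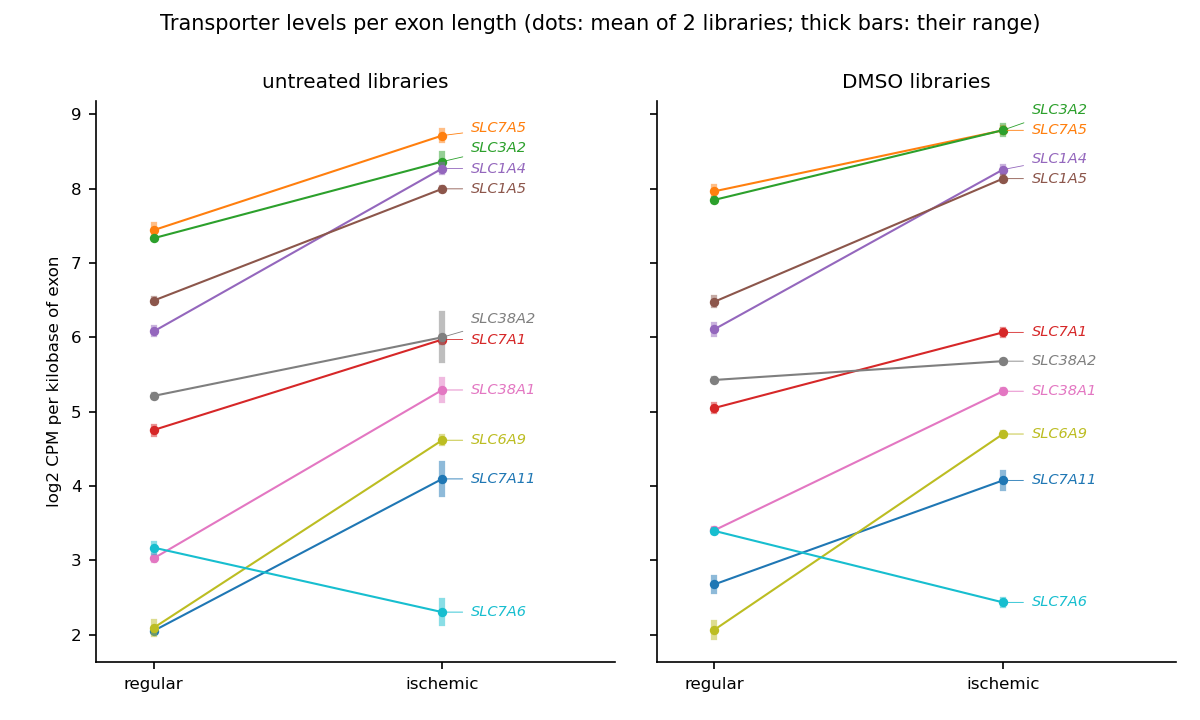
Levels of the 10 transporters as log2 CPM per kilobase of exon (vertical axis) in regular and ischemic culture, for untreated libraries (left) and DMSO libraries (right); dots are means of 2 libraries and thick bars their range. SLC7A5 and SLC3A2 sat at the top in both cultures, SLC1A4 crossed SLC1A5, and SLC7A6 was the line that ran downward.

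The first comparison asks how the transporters responded to ischemic culture. In untreated cells, 8 of the 10 rose by at least a fold change of 2 and none fell by as much, where 11.3% of all genes were higher and 9.1% lower by that rule (adjusted p under 0.05 by limma and a fold change of at least 2). Their median log2 fold change was 1.39, against -0.0090 over all genes. With DMSO, in the second experiment, 6 of 10 rose by a fold change of 2 or more and none fell, where 9.03% of all genes were higher and 8.11% lower. The median there was 1.21, against -0.0068 over all genes. At an adjusted p under 0.05 and any size, 9 were higher and 1, SLC7A6, was lower in both experiments. By that rule 35.2% of all genes were higher and 35.2% lower without treatment, and 34.4% and 35.2% with DMSO.

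**Figure D2:**
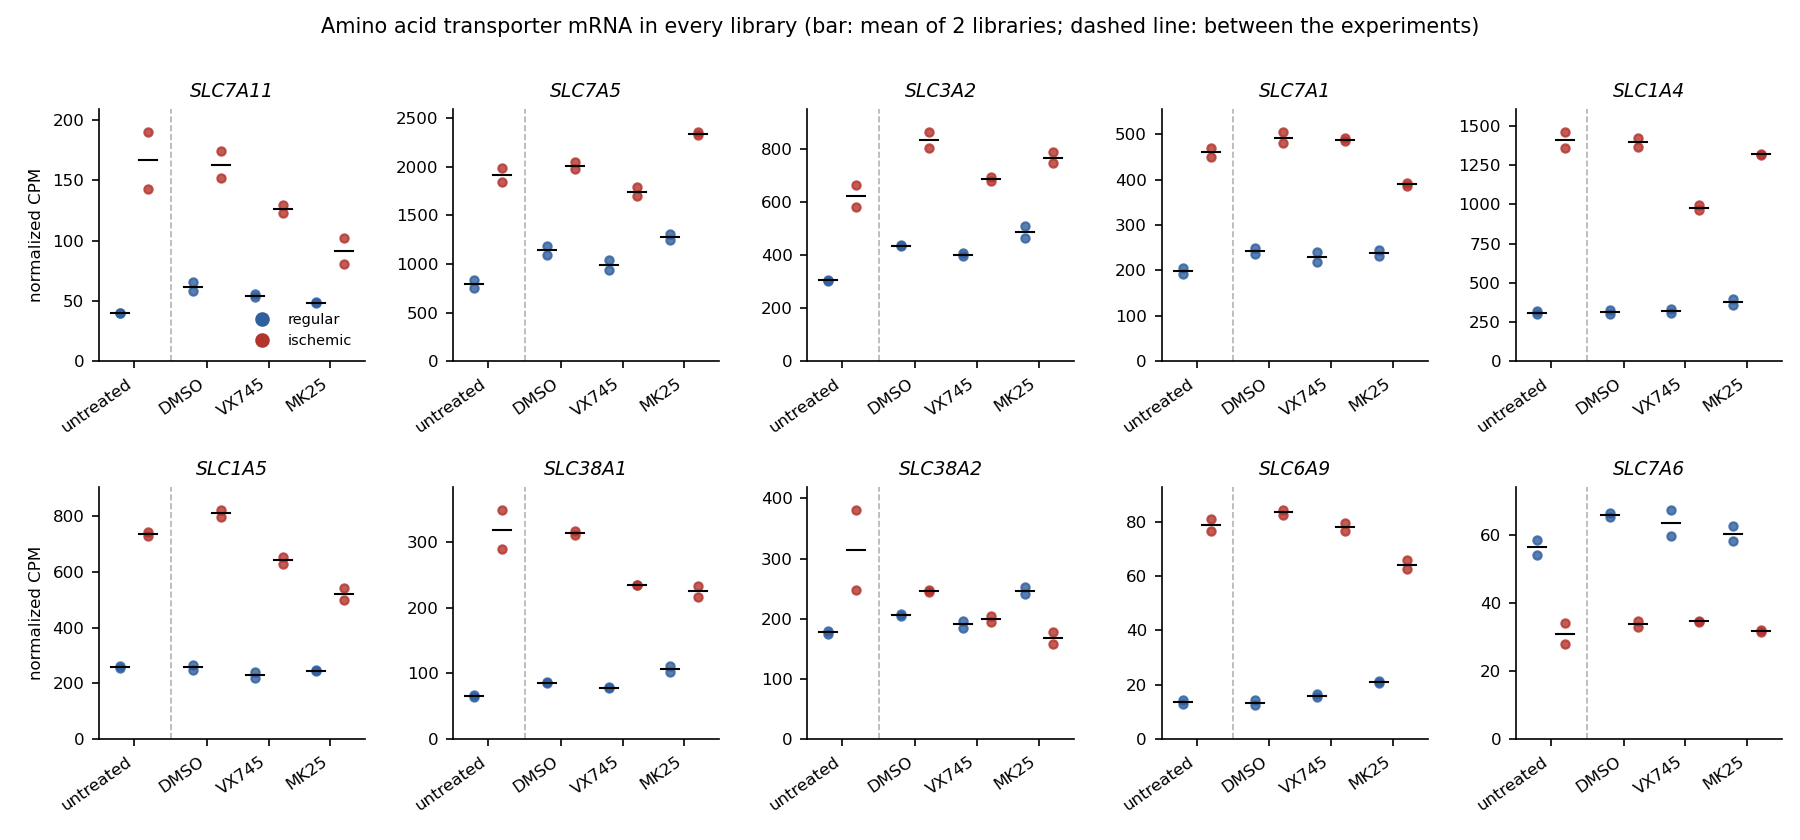
Normalized CPM (vertical axis, from 0) of each transporter in every library, for regular (blue) and ischemic (red) culture under each treatment; each dot is 1 library and the bar is the mean of 2. Ischemic dots lay above regular dots in untreated and DMSO cells for 9 transporters, below them for SLC7A6, and for SLC38A2 the order turned with MK25.

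SLC3A2 (gene 6520, chromosome 11, 62856109 to 62888860 of GRCh38.p14) encodes the heavy chain 4F2hc, which carries several SLC7 light chains to the membrane. Its CPM was 304 and 305 in the untreated regular libraries and 580.1 and 665 in the ischemic ones. Both ischemic libraries lay above both regular ones, with a log2 difference of 1.03 (standard error, SE, 0.076, adjusted p = 1.33e-07). This value was near the fold threshold and without ischemic replicate 2 was 0.93. With DMSO the CPM was 438 and 432 in regular and 804 and 864 in ischemic culture. The log2 fold change of 0.94 (SE 0.058, adjusted p = 2.01e-10) stood just under a fold of 2. Over the alternatives tried it lay between 0.61 and 0.99.

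SLC7A5 (gene 8140, chromosome 16, 87830023 to 87869507) encodes LAT1, the light chain that exchanges large neutral amino acids such as leucine. In untreated cells it had the highest level per kilobase of the 10. The CPM was 755 and 832 in untreated regular cells and 1842 and 1990.1 in untreated ischemic cells, with no overlap. The rise was 2.42-fold (log2 1.27, SE 0.079). With DMSO it was 1090.0 and 1190.0 against 1974 and 2048, a 1.77-fold rise (log2 0.82, SE 0.065, adjusted p = 5.07e-09). Over the alternatives tried, this log2 value lay between 0.44 and 0.88.

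SLC7A11 (gene 23657, chromosome 4, 138164097 to 138242349) encodes xCT, the light chain that takes up cystine in exchange for glutamate and so feeds glutathione synthesis. Untreated regular libraries had 40.2 and 39.8 CPM and ischemic libraries 190.0 and 143. All of the ischemic libraries were above the regular ones, and they were also farther apart. The log2 fold change was 2.04 (SE 0.11, adjusted p = 6.83e-09). With DMSO the values were 58.3 and 65.3 in regular and 174 and 152 in ischemic culture, a log2 fold change of 1.40 (SE 0.091). The antisense gene SLC7A11-AS1 overlaps it by 14081 bases. Its level was 0.395% to 1.43% of that of SLC7A11.

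SLC7A6 (gene 9057, chromosome 16, 68264526 to 68301819) encodes y+LAT2, a light chain that exchanges cationic for neutral amino acids, and was the member with the opposite direction. Its CPM was 54.3 and 58.6 in untreated regular and 34.2 and 27.9 in untreated ischemic libraries. With DMSO it was 66.5 and 65.3 and 34.7 and 33. In both experiments the ischemic libraries lay below the regular ones. The log2 fold changes were -0.87 (SE 0.10, adjusted p = 7.61e-06) and -0.96 (SE 0.069, adjusted p = 1.26e-09), short of a fold of 2. Without ischemic replicate 1 the first of them was -1.02 and passed it. SLC7A6OS overlaps SLC7A6 by 3786 bases and stood at 11.2% to 34.8% of its CPM. The kit does not mark strand, so reads in the overlap cannot be assigned.

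The light chains therefore shifted unequally against their heavy chain. The log2 ratio of SLC7A11 to SLC3A2 was -2.92 and -2.94 in untreated regular libraries and -1.61 and -2.22 in ischemic ones. With DMSO the shift was smaller, from -2.91 and -2.73 to -2.21 and -2.51. That of SLC7A6 to SLC3A2 was -2.48 and -2.38 in regular and -4.08 and -4.58 in ischemic libraries, and with DMSO -2.72 and -2.73 against -4.54 and -4.71. That of SLC7A5 to SLC3A2 moved less, from 1.31 and 1.45 to 1.67 and 1.58, and with DMSO it was 1.32 and 1.46 in regular and 1.30 and 1.25 in ischemic culture. These ratios are a description and were not tested.

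SLC7A1 (gene 6541, chromosome 13, 29509414 to 29595688) encodes CAT-1, which takes up arginine and lysine without a heavy chain. It went from 192 and 205 CPM to 470.3 and 451 in untreated cells (log2 fold change 1.22, SE 0.067). With DMSO it went from 237 and 249.7 to 480.3 and 505 (log2 1.02, SE 0.059). Regular and ischemic libraries did not overlap. The DMSO value fell to 0.98 and under the fold threshold without regular replicate 1 and also without ischemic replicate 2.

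SLC1A4 (gene 6509, chromosome 2, 64988479 to 65023865) and SLC1A5 (gene 6510, chromosome 19, 46774883 to 46788594) encode ASCT1 and ASCT2, sodium-dependent exchangers of alanine, serine and cysteine, of which ASCT2 also carries glutamine. SLC1A4 rose from 300.1 and 318 CPM to 1361 and 1462. That was 4.57-fold (log2 2.19, SE 0.071, adjusted p = 9.1e-11). With DMSO it rose from 329 and 302 to 1367 and 1426, or 4.43-fold. SLC1A5 was at 257 and 263 in untreated regular and 731 and 743 in untreated ischemic libraries, a 2.83-fold rise (log2 1.5, SE 0.064). With DMSO the values were 248 and 266 and 799 and 822, or 3.15-fold. For both genes, the libraries of one culture lay close together and far from those of the other.

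SLC38A1 (gene 81539, chromosome 12, 46183063 to 46269043) and SLC38A2 (gene 54407, chromosome 12, 46358188 to 46372773) lie near each other on chromosome 12 and encode SNAT1 and SNAT2, sodium-coupled carriers of glutamine and alanine. SLC38A1 rose from 67.3 and 64.8 CPM to 349 and 289 in untreated cells (4.81-fold, log2 2.27, SE 0.086) and from 85.2 and 86.4 to 317 and 310.0 with DMSO (3.66-fold). SLC38A2 showed the smallest rise of the 9. Its CPM was 176 and 180.1 in untreated regular and 381 and 248 in untreated ischemic libraries, a log2 fold change of 0.79 (SE 0.14, adjusted p = 0.000295). The first ischemic library stood well above the second. Without ischemic replicate 2 the log2 fold change was 1.10, past a fold of 2, and without ischemic replicate 1 it was 0.48. With DMSO the values were 207 and 205 in regular and 247 and 245 in ischemic culture (log2 0.25, SE 0.06, adjusted p = 0.00114). This small difference was lost under quantile normalization (log2 0.075, adjusted p = 0.28).

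SLC6A9 (gene 6536, chromosome 1, 43996483 to 44031462) encodes GLYT1, the sodium- and chloride-dependent glycine transporter, and showed the largest rise of the 10 in both experiments. Its CPM was 13.0 and 14.4 in untreated regular and 81.0 and 76.4 in untreated ischemic libraries. With DMSO it was 12.6 and 14.4 and 82.5 and 84.2. The folds were 5.75 (log2 2.52, SE 0.089, adjusted p = 2.06e-10) and 6.20 (log2 2.63, SE 0.076, adjusted p = 5.12e-15). CCDC24 overlaps SLC6A9 by 46 bases, and its CPM was 28.2% to 45.0% of that of SLC6A9 in regular and 7.48% to 16.8% in ischemic libraries.

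**Figure D3:**
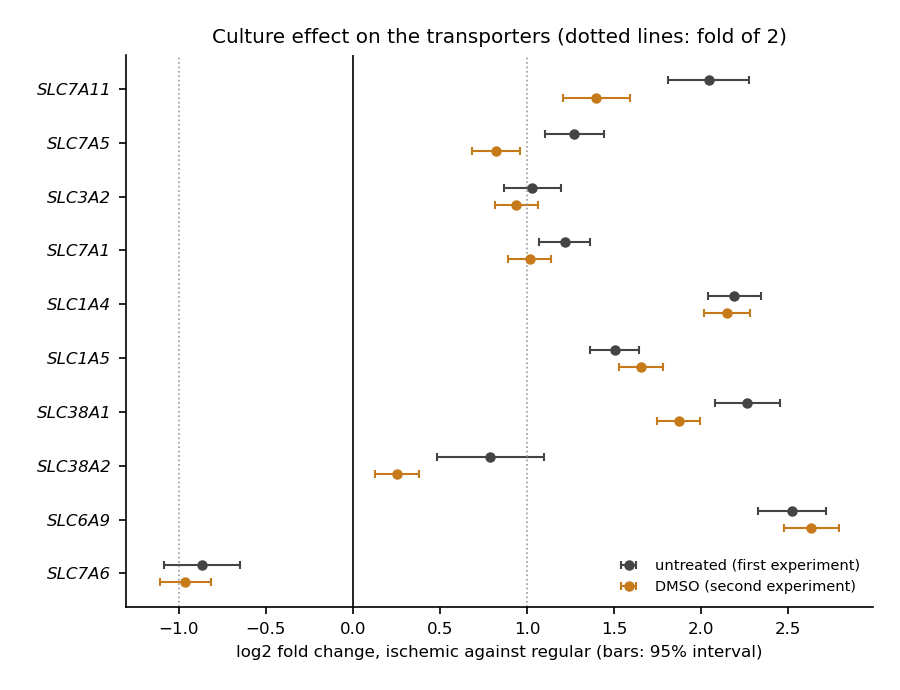
Log2 fold change of each transporter, ischemic against regular culture (horizontal axis), in untreated cells (grey) and DMSO cells (orange), with 95% intervals and dotted lines at a fold of 2. SLC6A9, SLC1A4 and SLC38A1 lay farthest to the right and SLC7A6 to the left of 0 in both experiments.

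Since 9 members rose together, member promoters were searched on both strands for letters of the C/EBP-ATF element, TGATGNAA. A promoter ran from 250 bases before to 50 after each RefSeq start (GRCh38.p14). RefSeq promoters were at hand for 9 members, with 15 starts between them. SLC7A11, which rose, had none, and SLC7A6, which fell, was among the 9 searched. Of the 15 starts 5 held a match, where 3.62% of 35116 promoters of that length did. Matches lay in SLC1A4, SLC38A1, SLC7A1, SLC1A5 and SLC3A2. Except in SLC7A1, the start with the match lies inside the gene and not at its outer end. Which start LN229 cells use was not tested. The matches are shown within 60 bases for the 4 genes whose match lies before or close to the start. These genes rose in both experiments, as did SLC7A5, SLC38A2 and SLC6A9, which were searched and held no match. The bases are read along the gene's strand with the match in capitals. The match of SLC1A4 is on the reverse strand.

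SLC1A4 (chr2:64989340-64989399, plus strand): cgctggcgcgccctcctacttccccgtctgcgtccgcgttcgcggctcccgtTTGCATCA
SLC38A1 (chr12:46266513-46266572, minus strand): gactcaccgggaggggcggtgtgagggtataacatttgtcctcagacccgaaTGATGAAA
SLC7A1 (chr13:29595674-29595733, minus strand): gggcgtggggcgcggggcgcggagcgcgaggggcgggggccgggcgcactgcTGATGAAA
SLC1A5 (chr19:46784894-46784953, minus strand): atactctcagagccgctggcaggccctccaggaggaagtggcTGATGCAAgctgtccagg

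The E-box CACGTG, bound by MYC among other factors, matched 2 of the 15 starts, where 7.26% of all promoters held it. The 2 lie in SLC7A5 and SLC1A5, and in SLC1A5 at another start than the TGATGNAA match. Both are shown as a description, and a part of MYC in the levels of these genes was not tested.

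SLC7A5 (chr16:87869622-87869681, minus strand): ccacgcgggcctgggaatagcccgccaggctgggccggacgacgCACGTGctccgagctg
SLC1A5 (chr19:46787328-46787387, minus strand): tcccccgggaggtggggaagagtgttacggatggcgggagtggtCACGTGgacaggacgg

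The core of the hypoxia response element, ACGTG, which lies within CACGTG, matched 5 of the 15 starts and 21.4% of all promoters. The antioxidant response element core TGACNNNGC matched 5 of the 15 and 13.3% of all. A match is a description of letters and says nothing of whether the factor binds there.

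The second comparison asks what inhibition of p38α did to the ischemic cells. With VX745 in ischemic culture, 7 of the 10 transporters fell at an adjusted p under 0.05 and none rose, where 14% of all genes were higher and 14.9% lower by that rule. None passed a fold of 1.5, as 4.35% of all genes did upward and 0.906% downward. The median of the 10 was -0.29, against 0.0029 over all genes. SLC1A4 changed most, from 1367 and 1426 CPM with DMSO to 994 and 967 with VX745, 1.42-fold lower (log2 -0.51, SE 0.062, adjusted p = 1.88e-05). SLC38A1 went from 317 and 310.0 to 235 and 235 (log2 -0.42, SE 0.057). In neither gene did the libraries overlap. Smaller falls were seen for SLC1A5 (-0.34), SLC38A2 (-0.30), SLC3A2 (-0.28), SLC7A11 (-0.37) and SLC7A5 (-0.21). SLC7A11, at 174 and 152 CPM with DMSO and 129 and 123 with VX745, lost the threshold without DMSO replicate 1 (log2 -0.27, adjusted p = 0.0978) or VX745 replicate 2 (log2 -0.33, adjusted p = 0.061). SLC7A5 lost it without any one of the 4 libraries (adjusted p between 0.0621 and 0.204). Quantile normalization left SLC1A4, SLC38A1 and SLC38A2 past the threshold and turned SLC7A1 from -0.012 to 0.19 (adjusted p = 0.028). The values of SLC6A9 (-0.10, 95% interval -0.25 to 0.064), SLC7A1 (-0.012, -0.14 to 0.11) and SLC7A6 (0.038, -0.11 to 0.18) did not pass.

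With MK25 in ischemic culture, 2 of the 10 fell by a fold of 1.5 or more, SLC7A11 and SLC1A5, and none rose by as much, where 7.02% of all genes were higher and 2.65% lower. At any size, 6 were lower and 1, SLC7A5, was higher, against 19.8% of all genes higher and 22% lower. The median of the 10 was -0.36 and that of all genes -0.0011. SLC7A11 had 80.7 and 102 CPM with MK25 and 174 and 152 with DMSO, 1.79-fold lower (log2 -0.84, SE 0.091, adjusted p = 2.16e-06). SLC1A5 went to 543 and 501 from 799 and 822, 1.55-fold lower (log2 -0.64, SE 0.06). Both MK25 libraries lay below both DMSO libraries in each. Without MK25 replicate 2 the value of SLC1A5 was -0.58 and missed the fold, while SLC38A2 passed it at -0.63. Under quantile normalization SLC1A5 stood at -0.38.

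The other falls with MK25 were those of SLC38A2 (-0.55, SE 0.06), SLC38A1 (-0.48, 0.057), SLC6A9 (-0.38, 0.076) and SLC7A1 (-0.34, 0.059). SLC38A2, at 159 and 178 CPM, had left the range of the regular DMSO libraries (207 and 205) on the low side. SLC7A5, the leucine exchanger, was the exception with 2357 and 2323 CPM against 1974 and 2048. Its rise of 0.22 (adjusted p = 0.013) lost the threshold without DMSO replicate 1 (adjusted p = 0.101), MK25 replicate 1 (0.077) or MK25 replicate 2 (0.0511). SLC7A1 lost it under quantile normalization (-0.13, adjusted p = 0.0865), and SLC1A4, at -0.081 and not past the threshold, turned to 0.18 (adjusted p = 0.0257). SLC3A2 (-0.12, 95% interval -0.24 to 0.0023) and SLC7A6 (-0.089, -0.23 to 0.057) did not pass.

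The same inhibitors were given in regular culture, where the medians of the 10 were -0.12 with VX745 and 0.17 with MK25, against -0.0059 and 0.0024 over all genes. With VX745, no transporter passed an adjusted p of 0.05, and few genes did at all: 0.178% of all genes were higher and 0.157% lower, or 0.0642% and 0.0357% past a fold of 1.5. At an unadjusted p under 0.05, limma gave 1 of the 10 higher, SLC6A9 (0.25), and 3 lower, SLC7A5 (-0.21), SLC1A5 (-0.15) and SLC38A1 (-0.13), where 6.99% of all genes were higher and 7.81% lower at that threshold. With MK25, 4 transporters were higher and 1 lower at any size, against 7% and 5.21% of all genes. Only SLC6A9 passed a fold of 1.5, as 1.88% of all genes did upward and 0.606% downward. SLC6A9 had 20.5 and 21.5 CPM with MK25 and 12.6 and 14.4 with DMSO, a 1.56-fold rise (log2 0.64, SE 0.076, adjusted p = 1.89e-05). Without regular DMSO replicate 1 the log2 value was 0.55 and missed the fold. SLC38A1 rose to 102 and 112 from 85.2 and 86.4 (0.32), and SLC38A2 (0.26) and SLC1A4 (0.26) rose a little. SLC7A11 was lower, at 48.1 and 48.9 against 58.3 and 65.3 (log2 -0.35, adjusted p = 0.0197). The calls of SLC7A11, SLC38A2 and SLC1A4 in regular culture were each lost without DMSO replicate 2 or MK25 replicate 2 (adjusted p between 0.0551 and 0.188), and that of SLC7A11 also without MK25 replicate 1 (0.0865). SLC3A2 (0.17, adjusted p = 0.0728) gained one without MK25 replicate 2 (0.23, adjusted p = 0.0352).

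SLC7A6 kept its low ischemic level, with 34.6 and 34.9 CPM with VX745 and 32.2 and 31.5 with MK25 beside 34.7 and 33 with DMSO. In regular culture it had 59.6 and 67.4 with VX745 and 58.3 and 62.6 with MK25, so that regular and ischemic libraries did not overlap under any treatment. SLC3A2 had 693 and 680.1 CPM with VX745 and 787 and 746 with MK25 in ischemic cells, and 395 and 407 and 511 and 466 in regular cells. SLC7A1 had 491 and 486 with VX745 and 387 and 393 with MK25 in ischemic cells against 480.3 and 505 with DMSO. Its MK25 libraries lay below the other ischemic libraries. In regular cells SLC7A1 had 218 and 242 with VX745 and 231 and 245 with MK25, both overlapping its DMSO libraries. SLC1A4 had 1315 and 1324 CPM with MK25 in ischemic cells, near its DMSO level, and in regular cells 359 and 394 with MK25 and 306 and 332 with VX745 against 329 and 302 with DMSO.

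Of the others, SLC7A5 had 1792 and 1695 CPM with VX745 in ischemic cells, below both of its DMSO libraries. In regular cells it had 939 and 1037 with VX745 and 1250.0 and 1307 with MK25, on either side of the DMSO libraries. SLC1A5 had 654 and 629.9 with VX745 in ischemic cells, 221 and 243 with VX745 in regular cells and 246 and 247 with MK25 in regular cells. SLC38A1 had 216 and 234 with MK25 in ischemic and 79.5 and 77.2 with VX745 in regular cells. The MK25 value was close to that with VX745 in ischemic cells. SLC38A2 had 194 and 205 with VX745 in ischemic cells, and 197 and 185 with VX745 and 241 and 252 with MK25 in regular cells. With VX745, its 2 cultures overlapped. SLC6A9 had 76.6 and 79.4 with VX745 and 65.7 and 62.5 with MK25 in ischemic cells, and 15.4 and 16.7 with VX745 in regular cells. SLC7A11 had 55.4 and 52.9 with VX745 in regular cells, just below its DMSO libraries.

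**Figure D4:**
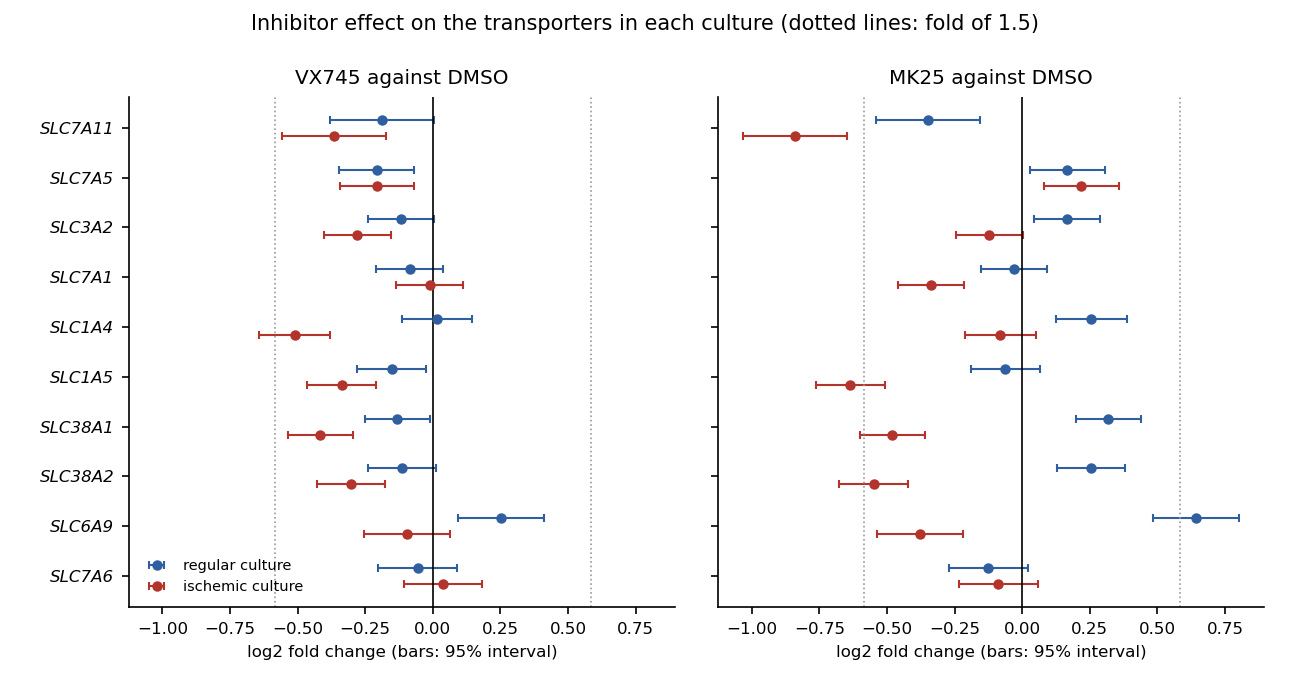
Log2 fold change of each transporter against DMSO (horizontal axis) with VX745 (left) and MK25 (right), in regular (blue) and ischemic (red) culture, with 95% intervals and dotted lines at a fold of 1.5. With MK25, SLC38A1, SLC38A2 and SLC6A9 lay to the right of 0 in regular and to the left in ischemic culture.

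Whether an inhibitor acted differently in the 2 cultures was tested by its interaction with culture, the log2 effect in ischemic minus that in regular cells. For MK25, 8 of the 10 transporters had a lower effect in ischemic culture at an adjusted p under 0.05 and none a higher one, where 10.5% of all genes had a higher and 13.9% a lower effect. The median of the 10 was -0.41, against 0.0018 over all genes. SLC6A9 differed most, by -1.02 (SE 0.11, adjusted p = 4.82e-06), from an effect of 0.64 in regular and -0.38 in ischemic cells. SLC38A2 (-0.81, SE 0.084) and SLC38A1 (-0.80, 0.081) rose in one culture and fell in the other as well. SLC1A5 (-0.57), SLC7A11 (-0.49), SLC1A4 (-0.34), SLC7A1 (-0.31) and SLC3A2 (-0.29) followed. With quantile normalization, or with no trend of the variance, the 8 became 4. With quantile normalization 1 transporter, SLC7A5, was called higher (0.34 in place of 0.052). The calls of SLC7A11 (without ischemic DMSO replicate 1 or ischemic MK25 replicate 1), SLC3A2 (without regular MK25 replicate 1, ischemic DMSO replicate 2 or ischemic MK25 replicate 2) and SLC7A1 (without ischemic DMSO replicate 2) each rested on single libraries, with adjusted p between 0.0591 and 0.0956 when these were left out. The 4 that passed under every alternative tried were SLC6A9, SLC38A2, SLC38A1 and SLC1A5.

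With MK25 the log2 difference, ischemic minus regular, was lower for these genes than with DMSO. SLC6A9 was 3.05-fold and SLC1A4 3.51-fold higher in ischemic than in regular culture, SLC1A5 and SLC38A1 were 2.12-fold and 2.10-fold higher, and SLC7A11 was 1.87-fold higher where it had been 2.64-fold with DMSO. SLC38A2 alone changed its order, from 1.19-fold with DMSO to 0.682-fold with MK25. These folds are given as a description.

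For VX745 the interaction was lower for 3 transporters, SLC1A4 (-0.53, SE 0.088, adjusted p = 0.0017), SLC6A9 (-0.35, 0.11, 0.0425) and SLC38A1 (-0.28, 0.081, 0.0307), and higher for none, against 5.78% of all genes higher and 6% lower. The median was -0.18, and 0.0099 over all genes. SLC38A1 and SLC6A9 lost the threshold without any one of 7 of the 8 libraries of the 4 groups (adjusted p between 0.0501 and 0.158 for both), and SLC1A4 kept it without each of the 8. With quantile normalization none of the 3 passed, with SLC1A4 at -0.25. At an unadjusted p under 0.05, 5 transporters had a lower effect and none a higher one, where 13.7% of all genes had a higher and 13.5% a lower effect.

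The 2 inhibitors were also set against each other. In ischemic cells, at any size, SLC7A5 (0.42) and SLC1A4 (0.43) were higher with MK25 than with VX745, and SLC7A11 (-0.47), SLC7A1 (-0.33), SLC1A5 (-0.30), SLC6A9 (-0.28) and SLC38A2 (-0.25) were lower, so that 2 of 10 stood higher and 5 lower where 8.22% and 10.2% of all genes did. None passed a fold of 1.5, as 1.75% and 2.2% of all genes did. SLC7A11 passed it without MK25 replicate 2 (-0.64), and without MK25 replicate 1 it was -0.30. The calls of SLC6A9 and SLC38A2 were lost without VX745 replicate 2 (adjusted p = 0.123 and 0.105), that of SLC6A9 without VX745 replicate 1 (0.0609) or MK25 replicate 2 (0.109), and that of SLC38A2 without MK25 replicate 1 (0.129). SLC38A1 (-0.065, 95% interval -0.19 to 0.056), SLC3A2 (0.16, 0.035 to 0.28) and SLC7A6 (-0.13, -0.27 to 0.018) did not pass. SLC3A2 gained the threshold under quantile normalization (0.18, limma adjusted p = 0.0213) and with only the groups compared (0.16, adjusted p = 0.0138).

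In regular cells, 6 were higher with MK25 than with VX745 and none lower, where 3.96% of all genes were higher and 1.43% lower. These were SLC38A1 (0.45), SLC6A9 (0.39), SLC7A5 (0.37), SLC38A2 (0.37), SLC3A2 (0.28) and SLC1A4 (0.24). None passed a fold of 1.5, as 1.23% and 0.228% of all genes did. The values of SLC3A2 and SLC1A4 lost the threshold without VX745 replicate 1 (adjusted p = 0.0541 and 0.204), SLC6A9 did so too (0.0565), SLC3A2 also without MK25 replicate 1 (0.0756) and SLC1A4 without MK25 replicate 2 (0.235). The medians of the 10 were -0.19 in ischemic and 0.26 in regular cells, against -0.0057 and 0.0058 over all genes. The compounds differ in target and in the concentration named for them.

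Over the 12 libraries of the second experiment, the log2 levels of 8 members (all but SLC38A2 and SLC7A6) moved together, with Pearson's r between 0.765 (SLC7A11 and SLC7A5) and 0.990 (SLC7A1 and SLC1A5). SLC38A2 stood apart, with r between -0.17 and 0.20 to each of the other 9. SLC7A6 was inverse to those 8, with r between -0.98 and -0.86. These values are a description. All of these r share the same 12 libraries, which fall into 2 cultures. Among 10052 genes whose mean log2 level was 3 or higher, the genes most like SLC7A11 were DIAPH3 (r = 0.993), HAPSTR1 (0.989) and NRP1 (0.987). Those most like SLC7A5 were SLC35E1 (0.992), NFKB2 (0.990) and RNF24 (0.989), and those most like SLC38A2 were COMMD10 (0.943), MAPK8 (0.933) and PTP4A2 (0.913).

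Of 15 regulators of these genes, 7 rose and 1 fell by a fold of 2 or more in untreated ischemic cells, where 11.3% of all genes rose and 9.1% fell. With DMSO 7 rose and none fell, against 9.03% and 8.11% of all genes. The medians were 0.93 and 0.95. ATF4 mRNA was at 368 and 344 CPM in untreated regular and 1050.4 and 1016 in untreated ischemic libraries (log2 fold change 1.54, SE 0.069). TRIB3, a pseudokinase gene induced by ATF4, went from 37.0 and 34.6 to 691 and 585 (log2 4.15). The others past a fold of 2 in both experiments were EPAS1, which encodes HIF-2α (3.59 and 2.44), DDIT3, which encodes CHOP (2.12 and 1.84), the NRF2 antagonist BACH1 (1.94 and 1.66), ATF3 (1.78 and 1.69) and MYC (1.75 and 1.93). EIF2AK4, the gene of the amino acid sensor GCN2, fell by 1.24 and 0.54 on the log2 scale. NFE2L2, which encodes NRF2, rose by 0.62 and 0.46.

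With the inhibitors in ischemic cells, ATF4 mRNA was at 1252 and 1269.9 CPM with DMSO, 978 and 999.6 with VX745 (log2 -0.35, SE 0.061, adjusted p = 0.000494) and 976 and 909 with MK25 (-0.42, 0.061, adjusted p = 4.32e-05). TRIB3 fell by 0.43 and 0.39. At any size 8 of the 15 regulators fell and none rose with VX745, where 14.9% of all genes fell and 14% rose. With MK25 10 fell and 3 rose, against 22% and 19.8% of all genes. DDIT3 fell by 0.90 with VX745 and by 0.37 with MK25. MYC had 53.8 and 48.6 CPM with MK25 against 115 and 120.1 with DMSO (log2 -1.20, SE 0.08), and 121 and 124 with VX745, a value that did not pass (0.058). In regular cells with MK25, ATF4 (0.47), TRIB3 (0.51) and DDIT3 (0.57) rose. The interaction of MK25 with culture was -0.89 for ATF4, -0.89 for TRIB3, -0.95 for DDIT3, -0.93 for ATF3 and -1.26 for MYC. In all, 8 of the 15 had a lower effect of MK25 in ischemic culture and none a higher one, against 13.9% and 10.5% of all genes.

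Of 22 other plasma membrane amino acid transporters 10 were listed. In untreated ischemic cells 5 of these rose by a fold of 2 or more and none fell, where 11.3% of all genes rose and 9.1% fell. With DMSO 4 rose and none fell, against 9.03% and 8.11%. The medians were 0.77 and 0.75. The largest rise was that of SLC38A5, a glutamine carrier of the SNAT family (3.06 and 2.35), at a low level of 0.447 to 5.49 CPM. SLC7A7, which encodes y+LAT1, was also low (0.447 to 2.43 CPM) and rose by 1.63 in untreated cells and by 0.89, under a fold of 2, with DMSO. SLC1A1, a glutamate transporter gene, rose by 1.20 and 1.31, and SLC43A1, the gene of the leucine carrier LAT3, by 1.12 and 1.63. With MK25 in ischemic cells, SLC38A3 (1.04) and the taurine transporter gene SLC6A6 (0.84) rose by a fold of 1.5 or more and none fell by as much, where 7.02% of all genes rose and 2.65% fell. None passed with VX745, against 4.35% and 0.906%.

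Of 15 lysosomal and mitochondrial amino acid carriers, 13 were listed in the first table and 14 in the second. None rose by a fold of 2 in ischemic culture, where 11.3% of all genes rose without treatment and 9.03% with DMSO. Of the carriers 1 fell without treatment and 2 with DMSO, where 9.1% and 8.11% of all genes fell. For a list this small these counts are near the shares of all genes. The genes that fell were SLC25A44 in both (-1.29 and -1.09), which encodes a mitochondrial carrier of branched-chain amino acids, and SLC25A18 with DMSO (-1.20). The medians were -0.39 and -0.43. At any size 8 were lower and 2 higher without treatment, and 9 and 3 with DMSO, where between 34.4% and 35.2% of all genes stood in each direction.

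Of 8 glutathione genes, 2 rose and 1 fell by a fold of 2 or more in untreated ischemic cells, where 11.3% of all genes rose and 9.1% fell. With DMSO none rose and 1 fell, against 9.03% and 8.11%, a count near that of all genes. GCLM, the modifier subunit of the enzyme that makes γ-glutamylcysteine from cysteine, fell in both (-1.05 and -1.23), while SLC7A11, which brings cystine in, rose. TXNRD1, a thioredoxin reductase gene, rose by 1.05 in untreated ischemic cells but by less than a fold of 2 with DMSO. In the second experiment it was 0.71 lower with MK25 than with DMSO in ischemic cells. GGT1, which degrades extracellular glutathione, was low (0.325 to 4.29 CPM). It rose by 1.86 in untreated ischemic cells, and by 0.88 with VX745 and 1.49 with MK25 against ischemic DMSO cells. CHAC1, a glutathione-degrading enzyme gene induced by ATF4, rose with MK25 in regular cells (0.73, a fold past 1.5). Its levels by culture were looked at after its values were seen, and were 9.48 and 11.6 CPM in regular and 6.17 and 5.24 in ischemic DMSO libraries (log2 -0.88, adjusted p = 8.31e-05).

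**Figure D5:**
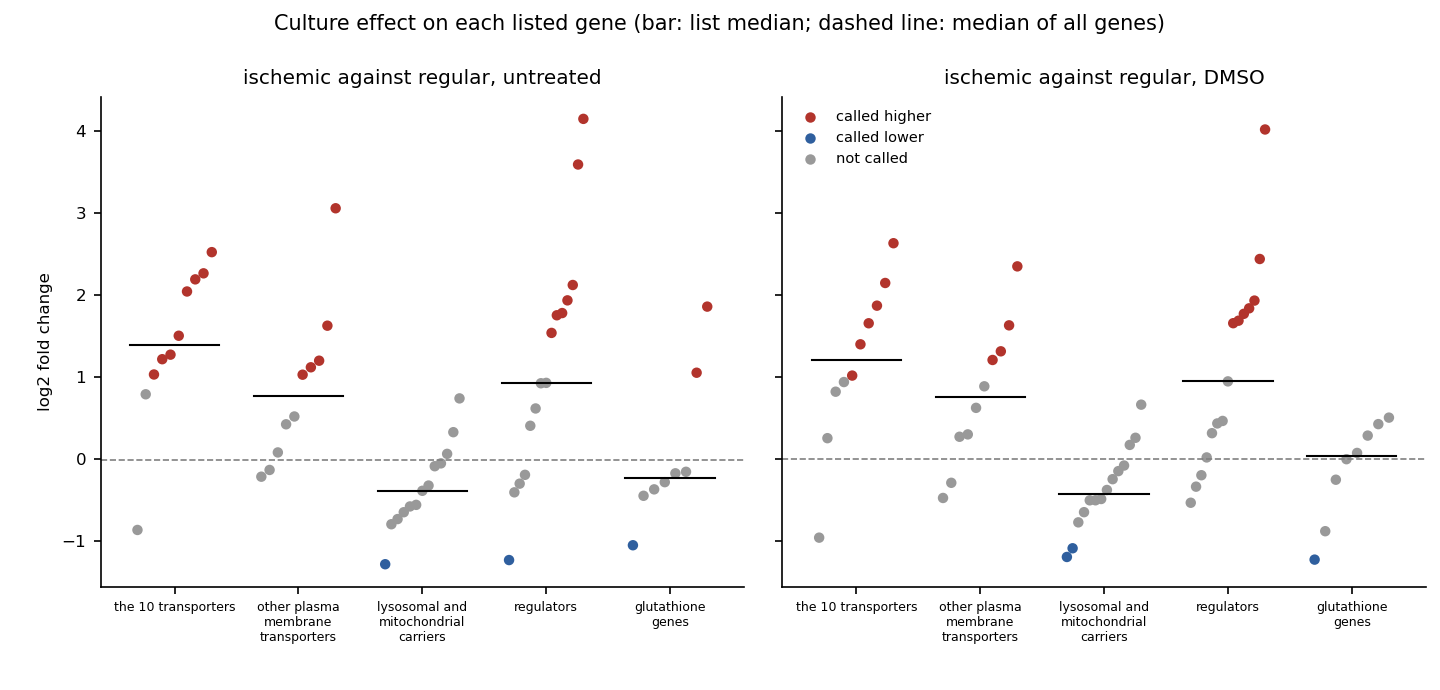
Log2 fold change of every listed gene, ischemic against regular culture (vertical axis), in untreated (left) and DMSO (right) libraries, by gene list; red dots were called higher, blue dots lower, grey dots neither, the bar is the median of the list and the dashed line that of all genes. The bars of the 10 transporters stood at 1.39 and 1.21, and those of the lysosomal and mitochondrial carriers at -0.39 and -0.43.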

How the data were processed

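Bulk RNA-seq of LN229 cells was analysed from 2 tables with a column for each of 16 libraries. Per the labels, RNA was extracted with TRIzol and libraries were made with the SMART-Seq mRNA HT and Nextera XT kits, which do not mark strand. The submitters' processing notes name HISAT2, edgeR and GRCh38. The authors deposited normalized log2 CPM by Entrez gene. The values gave back whole reads for 100% of entries (tolerance 0.1 reads), which set the depth of 20122017 to 37562668 reads. A symbol was matched for 99.4% and 99.3% of the genes, and no column was left out. The level of 3 reads covers counting error only.

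Since the files hold log2 values and not counts, the comparisons were fitted with limma 3.58.1 in R 4.3.3 (trend of the variance on the mean, intervals from the spread between libraries) on the values as deposited, with no filter. Each experiment was fitted alone, and the 6 groups of the second shared 1 estimate of the spread. Tests were two-sided, with Benjamini-Hochberg adjustment over all genes of the table. A call needed an adjusted p under 0.05. Between cultures it also needed a fold of at least 2 and between treatments one of 1.5, with no fold for interactions. The fold changes are on the deposited log2 scale, whose offset is about 2 reads, and so understate changes of low genes. Levels across the 2 tables were normalized separately and were not tested against each other.

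The 10 members were named with their values in all groups. From the lists of other transporters, carriers and glutathione genes, called genes were named, at most 4 for each list and comparison. Regulators and markers were named freely. The members and lists were chosen with earlier results of these data known. Exon lengths came from GENCODE 44, and positions and promoters from RefSeq. Alternatives were another threshold, adjustment, scaling, pseudocount (1 CPM), filter, variance model, set of groups and tool, the replicate block, and each library left out. The scripts were tested on simulated data.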

Additional observations from a re-analysis of the deposited data

Results flagged for a closer look

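The effect of MK25 against DMSO differed between ischemic and regular culture for 8 transporters, each flagged because the test of the difference passed (limma, adjusted p under 0.05 over all genes). In log2, the effect in ischemic minus that in regular cells was -1.02 for SLC6A9 (adjusted p = 4.82e-06), -0.81 for SLC38A2 (5.02e-06), -0.80 for SLC38A1 (3.6e-06), -0.57 for SLC1A5 (0.000153), -0.49 for SLC7A11 (0.0104), -0.34 for SLC1A4 (0.00988), -0.31 for SLC7A1 (0.0122) and -0.29 for SLC3A2 (0.0178). SLC6A9, SLC38A2 and SLC38A1 were called higher with MK25 in regular cells and lower in ischemic cells at any size of change. The effect of VX745 differed between the cultures for 3 transporters by the same test, with -0.53 for SLC1A4 (adjusted p = 0.0017), -0.35 for SLC6A9 (0.0425) and -0.28 for SLC38A1 (0.0307).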

How the results depend on the processing

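With no fold threshold, the number of transporters called lower in ischemic culture was 1 in either experiment in place of 0. In ischemic cells it became 7 lower with VX745, 1 higher and 6 lower with MK25, and 2 higher and 5 lower for MK25 against VX745. In regular cells it became 4 higher and 1 lower with MK25, and 6 higher for MK25 against VX745. Quantile normalization left 1 lower with MK25 in ischemic cells, 0 lower for the VX745 interaction, and 1 higher and 4 lower for the MK25 interaction. With no trend of the variance, the VX745 interaction was lower for 1 transporter and that of MK25 for 4. At an unadjusted p, the VX745 interaction was lower for 5, where 13.5% of all genes were lower. The cause was not tested.

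Leaving out 1 library gave 0 to 1 lower in untreated ischemic cells, 5 to 6 higher in ischemic DMSO cells, 0 to 1 higher with MK25 in regular cells, 0 to 1 lower for MK25 against VX745 in ischemic cells, 1 to 2 lower for the VX745 interaction and 6 to 8 for that of MK25. Where this left a group with 1 library, that library was taken to vary like the others.

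A single transporter value was counted as reversed only if it passed the threshold as deposited or under the alternative. By that rule 2 were reversed, both under quantile normalization in ischemic cells. They were SLC7A1 with VX745 (0.19, limma adjusted p = 0.028) and SLC1A4 with MK25 (0.18, adjusted p = 0.0257), neither of which was called as deposited. Values that passed in neither fit could change sign uncounted, as that of SLC3A2 with MK25 in ischemic cells did (-0.17 to 0.12). Of 790 single transporter values under other settings, 755 kept their call and its direction or passed in neither fit, 30 lost the threshold and 3 gained it. With a library left out, some calls were lost, and some values short of the threshold changed sign. Those of SLC7A1 in ischemic cells (-0.047 to 0.024) and of SLC1A4 in regular cells (-0.044 to 0.076), both with VX745, did so. SLC3A2 fell under a fold of 2 in untreated cells when libraries were centred on their median (0.99) or quantile normalized (0.81), and SLC7A1 with DMSO when quantile normalized (0.74).

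The replicate numbers are shared across groups in the labels. Deviations of same-numbered libraries correlated at 0.19 in the first experiment (1 pair of groups) and between -0.10 and 0.18 in the second (15 pairs, of which 2 were over 0.1), so the numbers were not taken as a pairing. The replicate block changed no count: 8 and 6 higher with culture, 2 lower with MK25 in ischemic and 1 higher in regular cells, and 3 and 8 lower for the interactions. With 2 libraries in each group, depth limits these results less than the number of libraries.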
